A study of Homo sapiens with 12 samples.

Results

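The 45 genes described here encode lysosomal proteins: membrane proteins, soluble acid hydrolases and their cofactors, subunits of the proton pump, and the transcription factors TFEB and TFE3. They were taken by symbol from a table of 62700 genes in 12 RNA-seq libraries, and all 45 had a row in it. Of these, 44 passed the filter on low counts and are among the 18049 genes tested. The exception was CTSF, the gene of cathepsin F, which had 0 or 1 count in each library.

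The cells were HCT116 TIM-mAID, a human colorectal carcinoma line with a CRISPR knock-in of the auxin-inducible degron tag mAID at TIMELESS, which all 4 groups carry. TIMELESS binds TIPIN and helps to stabilise replication forks. For 40 h the cells received DMSO, the solvent, 5-Ph-IAA at 1 µM, the auxin analogue that triggers degradation of the tagged protein, the ATR kinase inhibitor ceralasertib (ATRi) at 1 µM, or 5-Ph-IAA and ATRi together at 1 µM each. Each group had 3 biological replicates. Degradation acts on the protein, so the transcript counts do not check it. Whether the line is 1 clone is not given in the sources used here.

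Lysosomes are acidic organelles in which hydrolases break down proteins, glycans and lipids delivered by endocytosis and autophagy. A vacuolar proton pump acidifies the lumen, heavily glycosylated membrane proteins line it, and TFEB and TFE3 enter the nucleus when the kinase mTORC1 is inactive and activate many lysosomal genes through a promoter motif called CLEAR. Enlarged lysosomes and raised beta-galactosidase activity, whose enzyme is encoded by GLB1, are widely used signs of senescent cells, and the set was examined with such lysosome growth in view.

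Promoters, from 250 bases before to 50 bases after the annotated start, were found for 31 of the 45 members in RefSeq (GRCh38.p14). Those shown are of 5 members whose transcripts rose with the combined treatment and, for contrast, 3 members without a called change whose promoters hold the motif bound by TFEB and TFE3. Each reads 5′ to 3′ on the gene's own strand, and capitals mark the E-box CACGTG together with any extension to TCACGTG, TCACGTGA or the palindromic CLEAR form, which has a G before TCACGTGA and a C after it. These motifs were searched on both strands, and each longer one contains the shorter ones.
CD68 (chr17:7579388-7579687, plus strand): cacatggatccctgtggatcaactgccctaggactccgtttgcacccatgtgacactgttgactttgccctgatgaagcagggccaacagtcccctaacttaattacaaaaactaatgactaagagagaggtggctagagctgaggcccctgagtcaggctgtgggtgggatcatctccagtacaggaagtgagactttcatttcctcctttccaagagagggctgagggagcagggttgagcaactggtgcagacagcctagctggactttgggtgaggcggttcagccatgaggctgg
FUCA1 (chr1:23868241-23868540, minus strand): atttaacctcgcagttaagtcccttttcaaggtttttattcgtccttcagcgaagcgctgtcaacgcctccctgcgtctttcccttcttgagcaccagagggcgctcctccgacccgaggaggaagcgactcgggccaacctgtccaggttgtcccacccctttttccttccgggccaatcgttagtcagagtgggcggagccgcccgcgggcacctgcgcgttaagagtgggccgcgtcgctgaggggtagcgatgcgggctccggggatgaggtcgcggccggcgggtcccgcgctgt
SMPD1 (chr11:6390224-6390523, plus strand): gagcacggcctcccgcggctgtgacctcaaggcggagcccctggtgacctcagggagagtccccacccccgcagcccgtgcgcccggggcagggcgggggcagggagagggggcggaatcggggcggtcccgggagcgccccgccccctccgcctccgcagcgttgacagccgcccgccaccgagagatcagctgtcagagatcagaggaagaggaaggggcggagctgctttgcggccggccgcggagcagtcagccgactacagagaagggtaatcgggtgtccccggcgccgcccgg
MAN2B1 (chr19:12666693-12666992, minus strand): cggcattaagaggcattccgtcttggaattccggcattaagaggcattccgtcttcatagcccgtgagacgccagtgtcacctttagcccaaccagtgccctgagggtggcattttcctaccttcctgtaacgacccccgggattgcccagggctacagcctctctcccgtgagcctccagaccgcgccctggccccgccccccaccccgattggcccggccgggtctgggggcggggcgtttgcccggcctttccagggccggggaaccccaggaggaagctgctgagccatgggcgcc
NEU1 (chr6:31862772-31863071, minus strand): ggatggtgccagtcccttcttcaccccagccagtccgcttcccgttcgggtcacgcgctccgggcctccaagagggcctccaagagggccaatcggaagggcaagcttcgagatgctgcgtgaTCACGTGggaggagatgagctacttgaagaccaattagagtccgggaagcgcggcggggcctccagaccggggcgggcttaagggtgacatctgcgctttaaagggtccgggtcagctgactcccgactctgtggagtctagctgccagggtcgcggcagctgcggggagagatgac
LAMP1 (chr13:113296989-113297288, plus strand): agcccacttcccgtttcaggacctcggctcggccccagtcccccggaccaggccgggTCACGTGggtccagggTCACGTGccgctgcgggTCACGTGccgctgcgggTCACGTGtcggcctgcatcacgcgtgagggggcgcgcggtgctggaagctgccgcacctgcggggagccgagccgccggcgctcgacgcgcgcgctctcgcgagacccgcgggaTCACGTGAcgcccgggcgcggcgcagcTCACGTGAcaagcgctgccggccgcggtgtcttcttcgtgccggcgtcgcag
MCOLN1 (chr19:7522374-7522673, plus strand): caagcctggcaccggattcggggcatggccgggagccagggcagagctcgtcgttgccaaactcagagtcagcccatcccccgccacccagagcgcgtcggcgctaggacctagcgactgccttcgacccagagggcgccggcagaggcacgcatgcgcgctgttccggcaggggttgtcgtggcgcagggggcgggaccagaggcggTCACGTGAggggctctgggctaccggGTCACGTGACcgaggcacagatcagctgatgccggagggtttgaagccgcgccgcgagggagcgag
GAA (chr17:80101331-80101630, plus strand): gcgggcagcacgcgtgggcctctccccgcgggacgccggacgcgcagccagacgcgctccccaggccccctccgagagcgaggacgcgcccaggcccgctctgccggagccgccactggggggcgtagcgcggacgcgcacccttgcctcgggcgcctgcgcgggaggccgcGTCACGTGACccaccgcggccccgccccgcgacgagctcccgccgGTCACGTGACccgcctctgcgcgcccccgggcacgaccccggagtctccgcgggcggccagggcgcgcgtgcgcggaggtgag

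The E-box occurred in 9 of the 31 member promoters (29%), against 7.43% of all 27305 promoters of this length. The 9 were LAMP1, CD63, MCOLN1, CTSA, CTSD, CTSF, GAA, NEU1 and ATP6V0D1. TCACGTG was found in 8 of 31 (25.8%, against 3.82%), TCACGTGA in 5 of 31 (16.1%, against 1.04%) and the full CLEAR form in 2 of 31 (6.45%, against 0.381%). It lay in the promoters of MCOLN1 and GAA, and LAMP1 had 6 E-boxes. Among the 5 promoters of members that rose, 1 held an E-box, that of NEU1, whose first base lies 126 bases before the start, and none held TCACGTGA. Among 24 matched members without a called change, 7 held an E-box and 5 held TCACGTGA. A match describes these letters and is not a measured binding site.

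The lysosomal genes spanned a wide range of levels in DMSO. Scaled to the length of the longest coding transcript, CD63, a tetraspanin of late endosomes, stood at 207.3 ± 34.7 CPM per kilobase (CPM, counts scaled to library size; SD, n = 3) and PSAP, the precursor of the saposins that help lipid hydrolases, at 179.5 ± 20. These neighbours in the order do not differ beyond their spread, and both lay above the cathepsin genes CTSZ at 84.6 ± 2.63 and CTSB at 80.5 ± 3.10. The next in order were NPC2, LAMP1, CTSA and CTSD, between 50.1 and 68.1 CPM per kilobase. At the low end were CD68 at 4.67 ± 0.502, CTSK at 4.57 ± 1.52, TFEB at 1.83 ± 0.142, SMPD1 at 1.74 ± 0.406 and CTSS at 0.107 ± 0.0385. CTSK and CTSS encode cathepsins best known from osteoclasts and from antigen-presenting cells. The members with the largest rises described next, CD68 and SMPD1, were thus among the scarce lysosomal transcripts in untreated cells.

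With both treatments, 6 of the 44 tested members rose, 1 fell and 37 did not pass the test (edgeR's quasi-likelihood F test, Benjamini-Hochberg adjustment over all genes tested, threshold 0.05). CD68, SMPD1, FUCA1, MAN2B1, NEU1 and SGSH rose, and CTSC fell. Of all genes tested, 6.24% rose and 6.89% fell in this comparison (13.1% in all), against 13.6% and 2.27% of the members. The median log2 fold change of the 44 members was 0.23, beside -0.02 over all genes, and 34 of 44 (77.3%) were positive, beside 48.1% of all genes. The summed level of the members was 3334.5 ± 104.5 CPM in DMSO and 3938.3 ± 176.8 CPM with both treatments (SD, n = 3), and the groups did not overlap (3220.3 to 3425.4 against 3810.9 to 4140.2 CPM). In these bulk samples, fewer cells of a type and less RNA per cell cannot be told apart.

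Neither single treatment gave a called member. With 5-Ph-IAA alone, 0 of 44 members passed edgeR's test, where 0.00554% of all genes did. Of these members, 0 had an unadjusted p under 0.05, where 1.32% of all genes had such a p. With ATRi alone, 0 of 44 passed, where 0.0665% of all genes did, and 3 members had an unadjusted p under 0.05, as did 4.86% of all genes. DESeq2 and limma-voom also called 0 members in both comparisons. The medians over the members were 0.09 on the log2 scale with 5-Ph-IAA and 0.09 with ATRi. Of the members, 31 of 44 (70.5%) were positive with 5-Ph-IAA and 33 of 44 (75%) with ATRi, beside 46.8% and 47% of all genes. A majority of positive members was thus not particular to the combination, and all comparisons with DMSO share its libraries. Against each single treatment in turn, the combination gave 4 higher members (CD68, FUCA1, MAN2B1 and SMPD1) and 0 lower relative to 5-Ph-IAA, where 4.38% of all genes were higher and 5.04% lower (9.41% in all). Relative to ATRi it gave 3 higher (CD68, FUCA1 and MAN2B1) and 0 lower, where 1.63% of all genes were higher and 1.88% lower (3.51% in all). Relative to 5-Ph-IAA, the higher calls fell to 2, CD68 and FUCA1, without any 1 library of these groups, and CTSH was called lower without 5-Ph-IAA replicate 3. Scaling by total counts alone gave 2 higher, CD68 and FUCA1, and 2 lower, CTSC and CTSH. Relative to ATRi, the count fell to 1 without ATRi replicate 2 and to 0 without ATRi replicate 1 or 3 or any combination library. These comparisons share libraries and are not independent of one another. For these alternatives, shares over all genes were not counted.

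**Figure D1:**
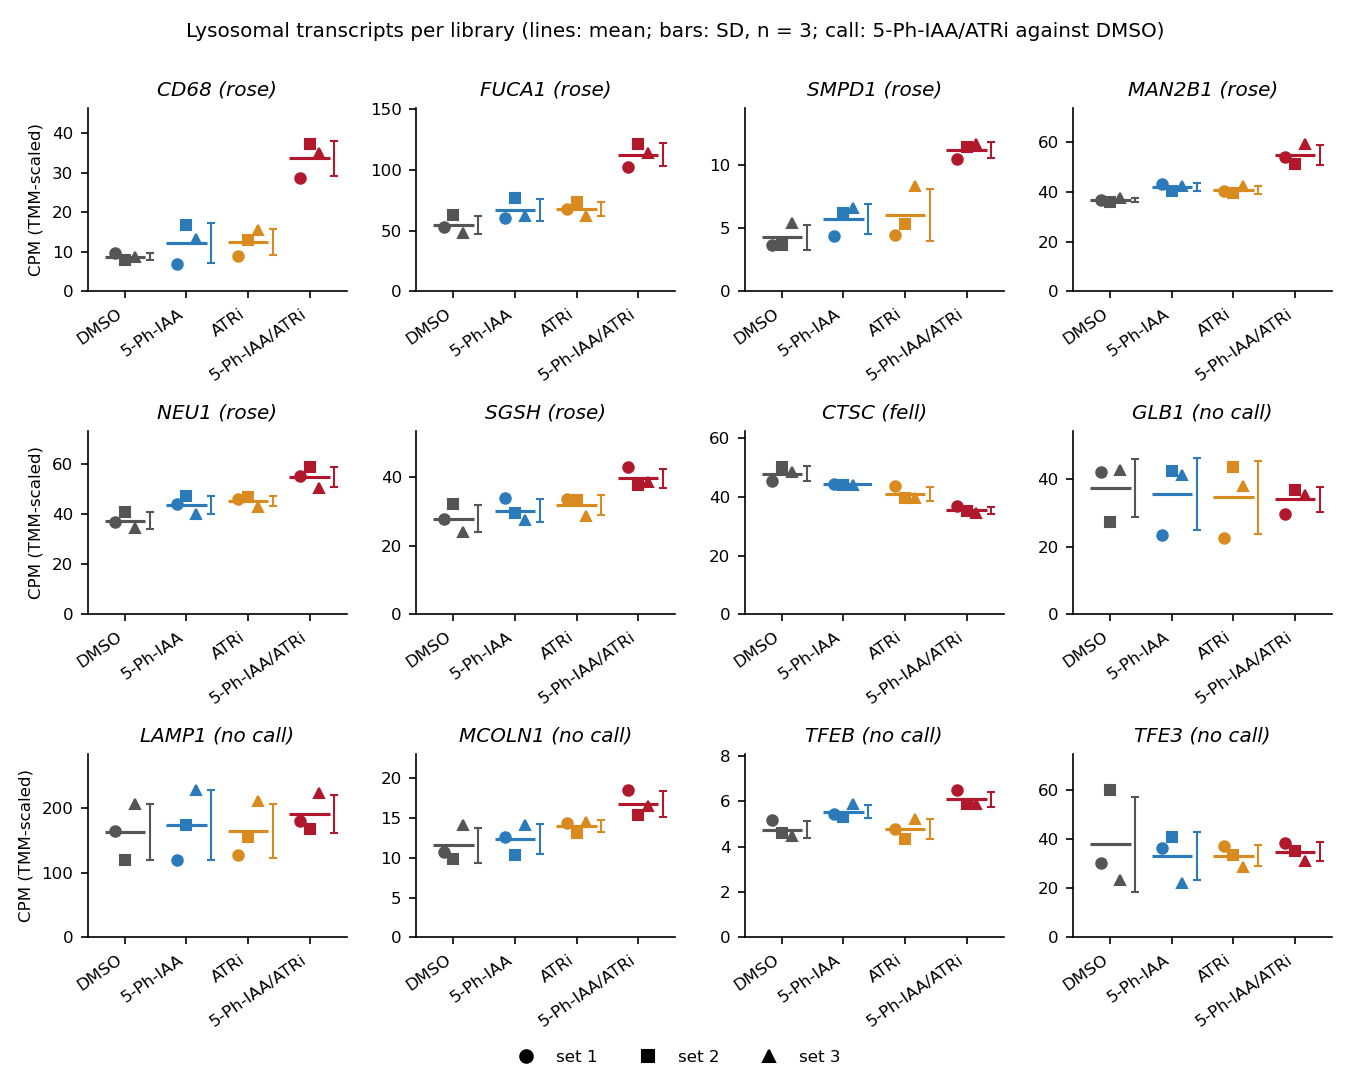
Level of 12 lysosomal transcripts in each of the 12 libraries, in TMM-scaled CPM on linear axes from 0 (points: libraries, with the symbol giving the set number; lines: group means; bars: SD, n = 3). For the 6 members that rose, all 5-Ph-IAA/ATRi libraries lie above all libraries of the other 3 groups, and for CTSC they lie below them.

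Among the 7 membrane proteins, CD68 rose and 6 did not pass the test, with a median log2 fold change of 0.11. This is 14.3% higher and 0% lower, beside 6.24% and 6.89% of all genes. CD68 (ENSG00000129226.14, chr17:7579638-7582111) encodes macrosialin, a heavily glycosylated protein of late endosomes and lysosomes that is best known from macrophages. It stood at 9.71, 7.83 and 8.76 CPM in the DMSO libraries, 6.83, 16.9 and 13.2 with 5-Ph-IAA, 8.98, 12.98 and 15.5 with ATRi, and 28.7, 37.1 and 35.04 with both. All 3 libraries of the combination lay above the other 9, while the single treatments overlapped DMSO. The log2 fold change of the combination against DMSO was 1.94 ± 0.30 (SE, edgeR adjusted p = 0.00178), or 3.84-fold. Against 5-Ph-IAA it was 1.45 ± 0.29 (edgeR adjusted p = 0.0111) and against ATRi 1.43 ± 0.29 (edgeR adjusted p = 0.0254), but the latter lost its call when any single ATRi or combination library was left out (edgeR adjusted p between 0.0533 and 0.0984). In GENCODE release 29, 81.7% of the exon bases of CD68 are shared with the same-strand gene ENSG00000264772, listed at 10.8 CPM in DMSO and 18.3 with both treatments, so the division of reads between them is uncertain.

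The level of CD68 was set beside markers of other cells that a culture could hold. Of 8 macrophage markers, 7 were under 1 CPM in every library (PTPRC, CD14, AIF1, TYROBP, FCER1G, CD163 and LYZ), and none was at 0 in all 12. Their summed level was 1.62 to 1.97 CPM in DMSO, 1.86 to 2.18 with 5-Ph-IAA, 1.72 to 2.26 with ATRi and 2.34 to 2.43 with both. CD14, a co-receptor for lipopolysaccharide, rose with both treatments, from 0.117 to 0.634 CPM (log2 fold change 2.42 ± 0.37, edgeR adjusted p = 0.00183). At such low levels CD14 may have passed the count filter only through the combination libraries, so its call carries little weight. The other 3 tested markers did not pass: LYZ had a log2 fold change of 0.25 ± 0.35, CSF1R of -0.05 ± 0.26 and FCER1G of -0.59 ± 0.60. The 4 that were too low to test, PTPRC, AIF1, TYROBP and CD163, had mean levels of 0.0118 to 0.0756 CPM in DMSO and 0.0118 to 0.131 CPM with both. Epithelial markers summed to between 4294 and 6384 CPM in DMSO and between 9993 and 11440 CPM with both. The 4 endothelial markers summed to between 0.964 and 2.05 CPM in DMSO and between 1.47 and 2.04 CPM with both. The 6 fibroblast markers summed to between 35.7 and 106.5 CPM in DMSO and between 43.6 and 69.9 CPM with both. Of these 6, 5 were under 1 CPM in every library, and COL1A1 was the exception.

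The remaining membrane proteins showed no called change. LAMP1, the most widely used lysosomal membrane marker, stood at 163.6, 119.2 and 205.0 CPM in DMSO and 179.4, 167.6 and 222.8 CPM with both (log2 fold change 0.22 ± 0.27, edgeR adjusted p = 0.659), and the groups overlapped. The calcium channel gene MCOLN1, also called TRPML1, stood at 10.8, 9.87 and 14.1 CPM in DMSO, 12.6, 10.4 and 14.1 with 5-Ph-IAA, 14.4, 13.2 and 14.5 with ATRi, and 18.5, 15.3 and 16.4 with both. Its 3 combination libraries lay above the other 9, but the difference from DMSO, 0.53 ± 0.16, missed the threshold (edgeR adjusted p = 0.0549) and passed it in 6 of 17 alternatives, among them DESeq2's test (adjusted p = 0.0196) and leaving out DMSO replicate 3 (edgeR adjusted p = 0.0272). LAMP2, a structural partner of LAMP1 with a role in autophagy, had a log2 fold change of 0.05 ± 0.22. CD63 had 0.11 ± 0.17, NPC1, which exports cholesterol from the lysosome, -0.04 ± 0.12, and SCARB2, the sorting receptor of glucocerebrosidase, -0.16 ± 0.19.

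Of the 10 tested cathepsins and other proteases, 0 rose and 1 fell, with a median log2 fold change of 0.15. This is 0% higher and 10% lower, beside 6.24% and 6.89% of all genes. CTSC (ENSG00000109861.17, chr11:88293592-88337736) encodes cathepsin C, a dipeptidyl peptidase that activates serine proteases of immune cells. It stood at 45.4, 50.1 and 48.5 CPM in DMSO, 44.6, 44.1 and 44.2 with 5-Ph-IAA, 43.8, 39.8 and 39.8 with ATRi, and 36.9, 35.1 and 34.5 with both. The groups were ordered without overlap between the combination and any other group, and all libraries of either single treatment lay below all DMSO libraries. Its log2 fold change was -0.44 ± 0.10 with both treatments (edgeR adjusted p = 0.0120), -0.22 ± 0.10 with ATRi (unadjusted p = 0.0380, edgeR adjusted p = 0.964) and -0.12 with 5-Ph-IAA. The call was lost without combination replicate 3 (edgeR adjusted p = 0.0556) and without a filter on low counts (edgeR adjusted p = 0.107).

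Other proteases lay on both sides of 0. CTSD, the aspartic protease cathepsin D, stood at 107.6, 81.7 and 129.5 CPM in DMSO, 83.6, 123.6 and 134.8 with 5-Ph-IAA, 94.0, 134.6 and 167.7 with ATRi, and 175.1, 165.2 and 213.2 with both. The combination lay above DMSO in all libraries, but ATRi replicate 3 exceeded the lowest of them, and the log2 fold change against DMSO of 0.80 ± 0.25 missed the threshold (edgeR adjusted p = 0.0559). CTSD was called higher in several alternatives, among them upper quartile factors, no count filter, DESeq2's test and the compared groups alone. It was not called with limma-voom, with total counts alone or when any single DMSO or combination library was left out. In GENCODE release 29, CTSD shares 41.7% of its exon bases with the same-strand gene ENSG00000250644, listed at 4.67 CPM in DMSO and 10.1 with both. The aminopeptidase gene CTSH stood at 47.1, 52.6 and 40.4 CPM in DMSO and 32.9, 39.2 and 28.6 with both (-0.48 ± 0.17, edgeR adjusted p = 0.102). CTSZ, a carboxypeptidase, stood at 130.6, 122.8 and 125.9 CPM in DMSO and 107.7, 108.3 and 104.0 with both (-0.25 ± 0.09, edgeR adjusted p = 0.104). CTSH and CTSZ thus had all combination libraries below all DMSO libraries without passing the test. The endopeptidase genes CTSB and CTSL had log2 fold changes of 0.16 ± 0.11 and 0.21 ± 0.12, CTSA, the protective protein of sialidase and beta-galactosidase, 0.25 ± 0.11, and the tripeptidyl peptidase gene TPP1 0.12 ± 0.15. CTSK and CTSS had 0.13 ± 0.28 and 0.24 ± 0.40, with the widest errors of the proteases.

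The 14 glycosidases and sulfatases held 4 of the 6 members that rose, and 0 fell, with a median log2 fold change of 0.31. These are 28.6% and 0% of the 14, beside 6.24% and 6.89% of all genes. Whether the rises gather in 1 role was not tested. FUCA1 (ENSG00000179163.12, chr1:23845077-23868290) encodes alpha-L-fucosidase, which removes fucose from glycans. It stood at 53.2, 62.8 and 47.9 CPM in DMSO, 60.8, 77.2 and 62.2 with 5-Ph-IAA, 67.9, 73.9 and 62.4 with ATRi, and 102.5, 121.1 and 114.3 with both. The combination lay above the other 9 libraries, at 2.06-fold the level in DMSO (1.04 ± 0.14, edgeR adjusted p = 0.000926). Its log2 fold changes against DMSO were 0.29 ± 0.14 with 5-Ph-IAA and 0.32 ± 0.14 with ATRi, and neither passed the test (edgeR adjusted p = 1.0 and 0.9995). The combination was also above 5-Ph-IAA by 0.75 ± 0.14 (edgeR adjusted p = 0.00782) and above ATRi by 0.73 ± 0.14 (edgeR adjusted p = 0.0204). The call against ATRi was lost without ATRi replicate 1, ATRi replicate 3 or any combination library (edgeR adjusted p between 0.0564 and 0.0886).

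MAN2B1 (ENSG00000104774.13, chr19:12646512-12666742), the lysosomal alpha-mannosidase, stood at 36.6, 35.8 and 37.4 CPM in DMSO, 43.1, 40.1 and 42.5 with 5-Ph-IAA, 40.3, 39.5 and 42.5 with ATRi, and 53.9, 51.3 and 59.0 with both. It was the member with all libraries of both single treatments above all DMSO libraries, with a spread in DMSO of 0.806 CPM (SD, n = 3). With both treatments it was 0.58 ± 0.10 higher than DMSO on the log2 scale (edgeR adjusted p = 0.00294), 0.39 ± 0.10 above 5-Ph-IAA (edgeR adjusted p = 0.0303) and 0.43 ± 0.10 above ATRi (edgeR adjusted p = 0.0374). Leaving out any 1 library of the groups compared ended the call against 5-Ph-IAA (edgeR adjusted p between 0.0562 and 0.138) and against ATRi (between 0.0852 and 0.175). Of its exon bases, 13.1% are shared with the same-strand gene ENSG00000269242, listed at 2.65 CPM in DMSO and 2.08 with both.

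NEU1 (ENSG00000204386.12, chr6:31857659-31862821) encodes the lysosomal sialidase, which removes terminal sialic acid from glycans. It stood at 36.9, 41.0 and 34.6 CPM in DMSO, 44.01, 47.2 and 39.98 with 5-Ph-IAA, 46.0, 46.9 and 43.1 with ATRi, and 55.4, 58.8 and 50.6 with both. The combination lay above the other 9 libraries (0.55 ± 0.11 against DMSO, edgeR adjusted p = 0.00885), and ATRi alone lay above DMSO in all libraries (0.27 ± 0.11, unadjusted p = 0.0331, edgeR adjusted p = 0.950). Its differences from 5-Ph-IAA, 0.33 ± 0.11, and from ATRi, 0.28 ± 0.11, did not pass the test (edgeR adjusted p = 0.0986 and 0.237). SGSH (ENSG00000181523.13, chr17:80200673-80220333), the sulfamidase that degrades heparan sulfate, stood at 27.8, 32.1 and 24.0 CPM in DMSO, 33.9, 29.7 and 27.4 with 5-Ph-IAA, 33.8, 33.3 and 28.7 with ATRi, and 42.9, 37.6 and 38.7 with both. It rose by 0.51 ± 0.14 against DMSO (edgeR adjusted p = 0.0322), the highest adjusted p of the 7 calls. The call was lost without DMSO replicate 1, DMSO replicate 3 or any combination library (edgeR adjusted p between 0.0668 and 0.124).

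GLB1, the gene of lysosomal beta-galactosidase, did not pass the test. It stood at 41.8, 27.3 and 42.5 CPM in DMSO, 23.4, 42.3 and 41.0 with 5-Ph-IAA, 22.5, 43.3 and 37.8 with ATRi, and 29.6, 36.8 and 35.3 with both. Each of DMSO, 5-Ph-IAA and ATRi held 1 low library, and the 4 groups overlapped. The log2 fold change with both treatments was -0.14 ± 0.28 (edgeR adjusted p = 0.816), and it turned to 0.12 when the share of mitochondrial counts was added to the model (edgeR adjusted p = 0.650). IDS, the iduronate sulfatase, stood at 69.7, 55.7 and 84.7 CPM in DMSO and 99.0, 90.4 and 129.2 with both (0.60 ± 0.23, edgeR adjusted p = 0.123), with no overlap. GUSB, the beta-glucuronidase often used as a reference gene, stood at 35.04, 41.95 and 31.7 CPM in DMSO and 27.0, 31.3 and 23.5 with both (-0.41 ± 0.15, edgeR adjusted p = 0.0969), also with no overlap. IDUA, the iduronidase, varied from 15.3 to 62.9 CPM within DMSO, and its log2 fold change was 0.32 ± 0.50. The other 6 were ARSA (0.44 ± 0.25), GLA (0.31 ± 0.24), GAA (0.19 ± 0.16), HEXA (0.08 ± 0.14), NAGLU (0.07 ± 0.12) and MANBA (-0.16 ± 0.12), which act on sulfatides, globosides, glycogen, gangliosides, heparan sulfate and mannosides.

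Of the 6 lipid-handling members, 1 rose and 0 fell, with a median log2 fold change of 0.25. This is 16.7% higher and 0% lower, beside 6.24% and 6.89% of all genes. SMPD1 (ENSG00000166311.10, chr11:6390474-6394996) encodes acid sphingomyelinase, which makes ceramide from sphingomyelin. It stood at 3.68, 3.70 and 5.41 CPM in DMSO, 4.36, 6.20 and 6.62 with 5-Ph-IAA, 4.45, 5.29 and 8.32 with ATRi, and 10.45, 11.4 and 11.6 with both. The combination lay above the other 9 libraries, at 2.61-fold the level in DMSO (1.38 ± 0.26, edgeR adjusted p = 0.00528), and both single treatments overlapped DMSO. It was 0.96 ± 0.26 above 5-Ph-IAA (edgeR adjusted p = 0.0376), a call lost when any library of these groups was left out (edgeR adjusted p between 0.0537 and 0.118), and 0.89 ± 0.25 above ATRi, which did not pass (edgeR adjusted p = 0.0865). PSAP stood at 551.1, 449.2 and 546.2 CPM in DMSO and 611.6, 655.2 and 758.5 with both (0.39 ± 0.25, edgeR adjusted p = 0.364). All combination libraries lay above all DMSO libraries, but single-treatment values ranged from 342.9 to 651.3 CPM and overlapped both. LIPA, the acid lipase, had 0.37 ± 0.25, the ceramidase gene ASAH1 0.13 ± 0.11, the thioesterase gene PPT1 0.02 ± 0.15, and NPC2, the cholesterol carrier that works with NPC1, -0.26 ± 0.18.

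The 5 proton pump members had positive log2 fold changes, from 0.23 to 0.76 with a median of 0.27. None of them passed the test, where 13.1% of all genes did. ATP6V0D1, a subunit that couples the membrane and cytosolic sectors, stood at 26.2, 15.02 and 32.0 CPM in DMSO and 38.3, 38.2 and 47.2 with both (0.76 ± 0.33, edgeR adjusted p = 0.170). ATP6V1A, the catalytic subunit, stood at 70.2, 41.3 and 80.7 CPM in DMSO and 90.6, 84.5 and 111.9 with both (0.58 ± 0.25, edgeR adjusted p = 0.164). The accessory subunit gene ATP6AP1 stood at 75.6, 75.6 and 80.4 CPM in DMSO and 92.7, 87.5 and 99.3 with both (0.27 ± 0.11, edgeR adjusted p = 0.137). In these 3 genes the combination libraries lay above all DMSO libraries, with unadjusted p values between 0.0306 and 0.0431. ATP6V1H and ATP6V1B2, further cytosolic subunits, had 0.23 ± 0.13 and 0.23 ± 0.38.

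The transcription factors did not pass the test. TFEB stood at 5.17, 4.58 and 4.48 CPM in DMSO, 5.45, 5.31 and 5.87 with 5-Ph-IAA, 4.77, 4.34 and 5.22 with ATRi, and 6.48, 5.89 and 5.89 with both. The combination was above all other libraries by a narrow margin (0.36 ± 0.15 against DMSO, edgeR adjusted p = 0.135). TFE3 stood at 30.6, 60.04 and 23.5 CPM in DMSO and 38.7, 35.3 and 31.1 with both (-0.12 ± 0.31, edgeR adjusted p = 0.864), and its direction turned without DMSO replicate 2 (0.37, edgeR adjusted p = 0.366). The activity of both proteins depends on their place in the cell, which transcript levels do not measure.

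**Figure D2:**
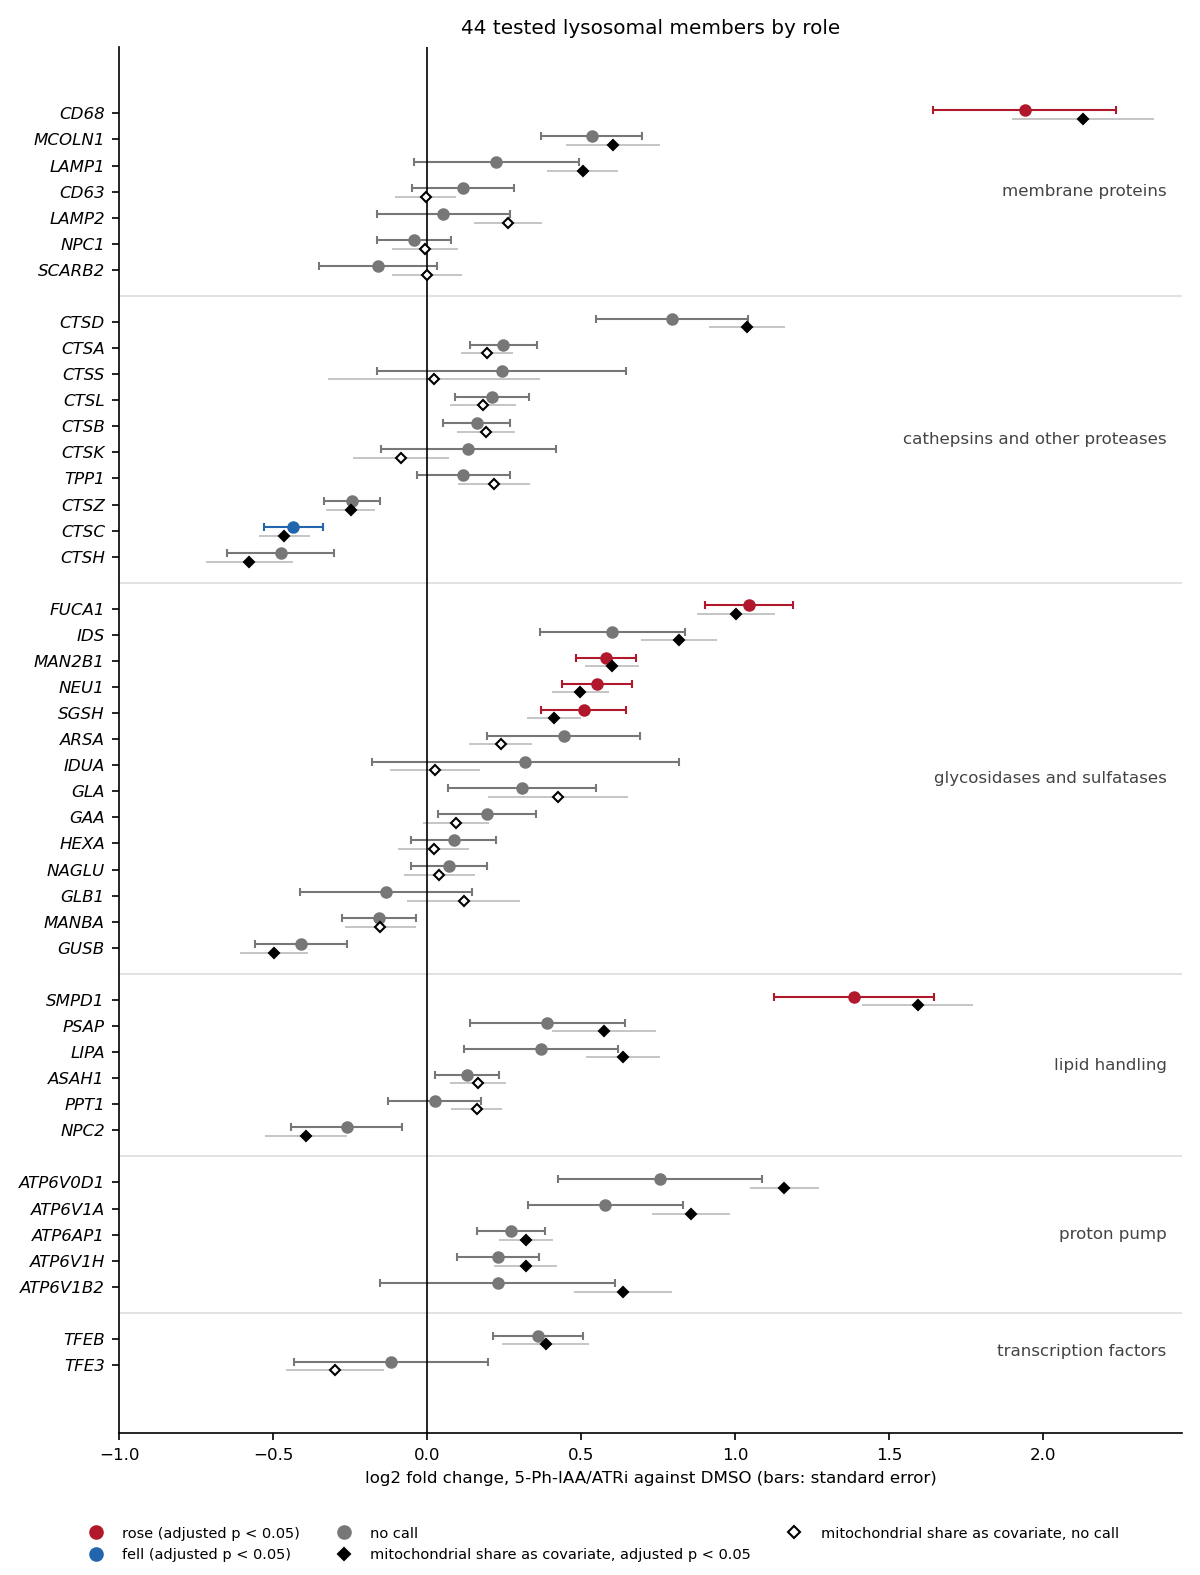
Log2 fold change of 5-Ph-IAA/ATRi against DMSO for the 44 tested members, ordered by role (circles: main model, coloured where the adjusted p is under 0.05; diamonds: model with the mitochondrial share as a covariate, filled where it passes; bars: SE). Among the circles CD68, SMPD1 and FUCA1 lie furthest to the right and CTSC is the called fall. With the covariate 18 members rise and 5 fall, where 17.6% of all genes rise and 18.1% fall.

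Group means rose from DMSO through 5-Ph-IAA and ATRi to the combination in 17 members, among them CD68, FUCA1, SMPD1, NEU1 and SGSH, but neighbouring single treatments overlapped in all 5. The 17 also include nearly flat genes such as LAMP2, with means of 65.9 CPM in DMSO and 68.3 with both. How many of all genes had this order was not counted. With no test, 17 of the 44 members had all combination libraries above all DMSO libraries (38.6%, against 16.4% of all genes), and 6 had them below (13.6%, against 15.9%). Besides the 6 that rose, the 17 were MCOLN1, CTSA, CTSB, CTSD, CTSL, IDS, PSAP, ATP6V0D1, ATP6V1A, ATP6AP1 and TFEB. Relative to 5-Ph-IAA, 10 members lay above (22.7%, against 13.6% of all genes) and 5 below (11.4%, against 14%). Relative to ATRi, 11 lay above (25%, against 12.9%) and 2 below (4.55%, against 14%). With 5-Ph-IAA alone, 2 members lay above all DMSO libraries, MAN2B1 and TFEB, and 1 below, CTSC (1.99% and 1.38% of all genes). With ATRi alone, 2 lay above, MAN2B1 and NEU1, and 2 below, CTSC and CTSZ (4.73% and 4.07%).

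The interaction, the departure of the combination from the sum of both single log2 changes, passed the test in 0 of 44 members (0.0776% of all genes passed), and DESeq2 and limma-voom also called 0. The unadjusted p was under 0.05 for 3 members, where 7.30% of all genes had such a p: CD68 (0.94 ± 0.41), FUCA1 (0.44 ± 0.20) and CTSH (-0.56 ± 0.25), each with an edgeR adjusted p between 0.659 and 0.681. Missing the threshold does not show that the effects were additive.

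The libraries held 27695914 to 34704725 estimated counts, and the mitochondrial genome took 6.63% to 14.94% of them. Its mean share went from 9.81% ± 4.49 (SD, n = 3) in DMSO to 10.1% ± 3.4 for 5-Ph-IAA, 10.6% ± 3 for ATRi and 12.2% ± 1.63 for the combination, and the 4 groups overlapped. DMSO replicate 2 and replicate 1 of the other 3 groups had the highest mitochondrial share of their group. In that library 22 of the 44 members were lowest of their group in DMSO, 21 with 5-Ph-IAA and 19 with ATRi, where 43.2%, 35.6% and 39% of all genes were lowest. The same 16 members were lowest in all 3 of these groups, among them LAMP1, LAMP2, CD68, CTSD, GLB1, IDS, PSAP, LIPA and 4 pump genes. Another 9 were highest in it in all 3 groups: CTSA, CTSC, CTSK, CTSS, GUSB, IDUA, SGSH, ARSA and NPC2. The shares of all genes that were lowest or highest in all 3 groups were not counted, so neither pattern is shown to be particular to the members. The low GLB1 libraries, 27.3, 23.4 and 22.5 CPM, and the high TFE3 library are among these libraries of highest mitochondrial share. With the mitochondrial share as a covariate, 18 members rose and 5 fell with both treatments, where 17.6% of all genes rose and 18.1% fell. The added rises included all 5 pump genes, CTSD (1.04 ± 0.12, edgeR adjusted p = 8.3e-05), LAMP1 (0.50 ± 0.11, edgeR adjusted p = 0.00490), IDS (0.82 ± 0.12, edgeR adjusted p = 0.000398) and MCOLN1 (0.60 ± 0.15, edgeR adjusted p = 0.00921). The added falls were CTSH, CTSZ, GUSB and NPC2. Without the 4 libraries of highest share, CD68, FUCA1, MAN2B1, NEU1 and SMPD1 rose and 0 fell, where 4.28% of all genes rose and 4.73% fell. In these 8 libraries the log2 fold change was 1.97 for CD68, 1.34 for SMPD1 and 1.23 for FUCA1. That of LAMP1 was 0.09, of MCOLN1 0.36, of IDS 0.51, of CTSD 0.68 and of ATP6V1B2 0.08 (0.63 with the covariate), and none of these 5 passed (edgeR adjusted p between 0.0641 and 0.916).

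**Figure D3:**
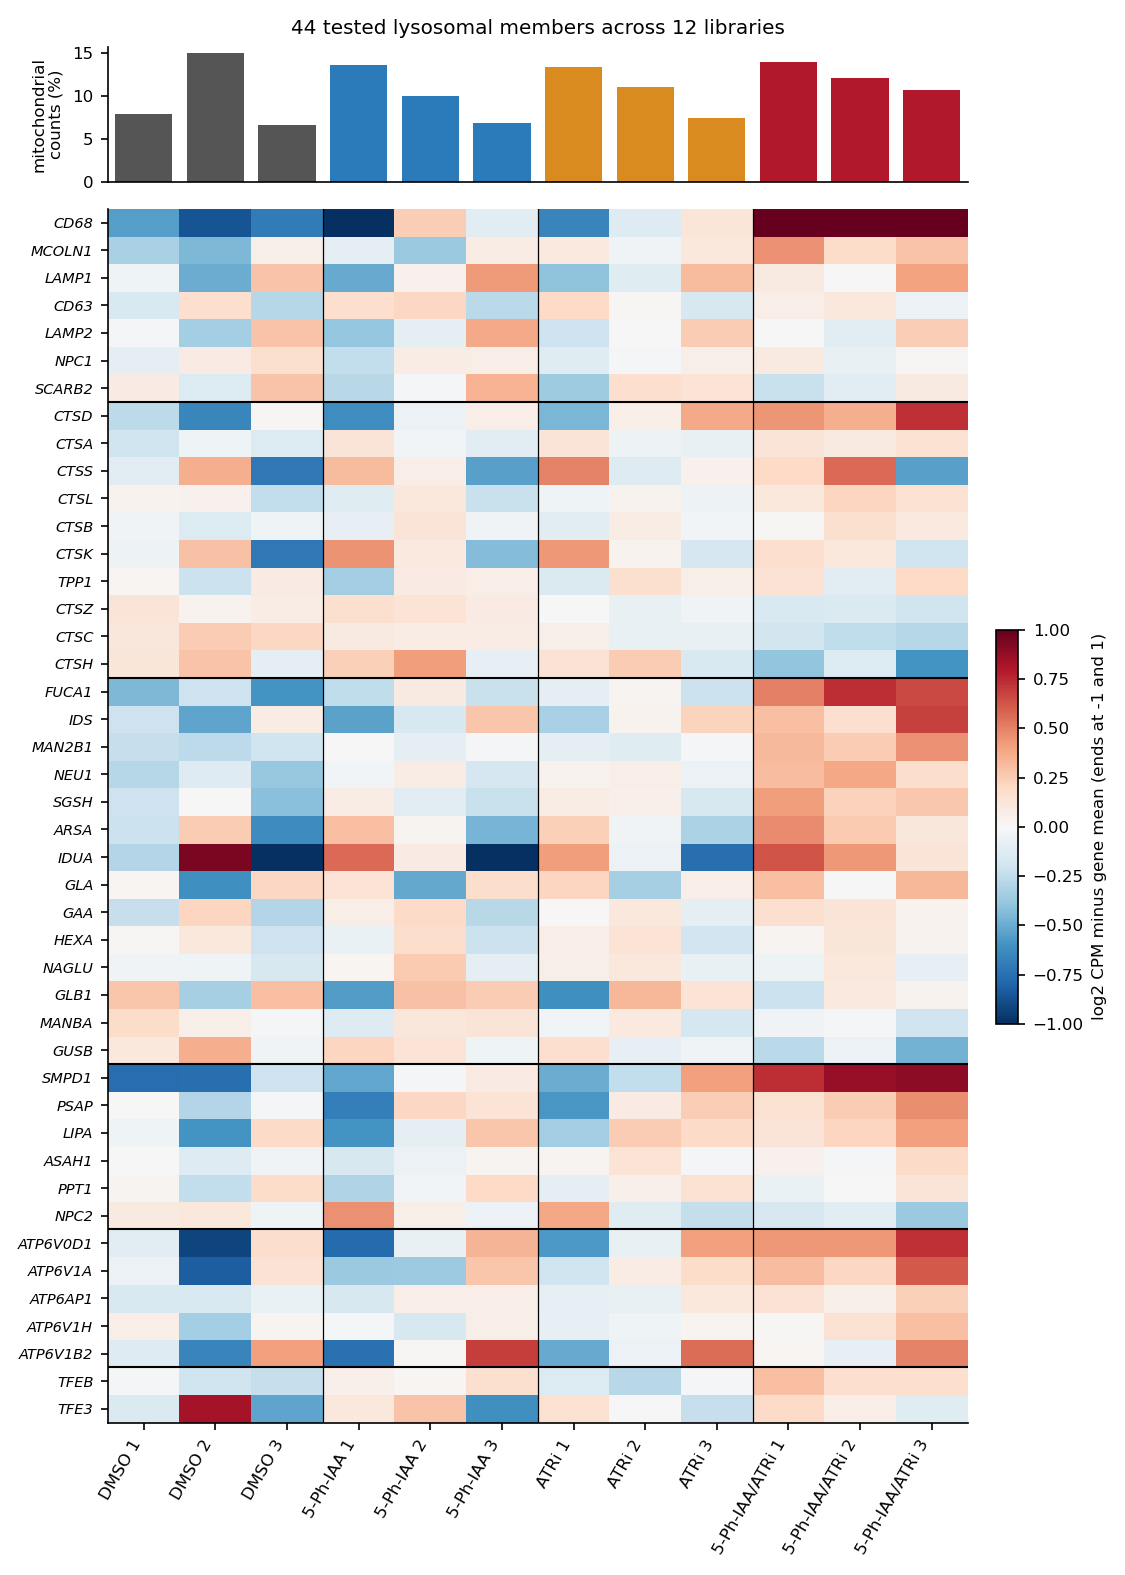
Log2 CPM of the 44 tested members minus the gene's mean over the 12 libraries, by library (columns) and role (blocks), with the mitochondrial share of counts, 6.63% to 14.94%, as bars above. CD68, SMPD1 and FUCA1 are high in all 5-Ph-IAA/ATRi libraries, and 4 of the 5 pump genes are lowest of their group in DMSO 2, 5-Ph-IAA 1 and ATRi 1.

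Other genes of the organelle, outside the 45, moved in both directions with the combined treatment. Of all genes tested, 6.24% rose and 6.89% fell in this comparison. Of 31 tested acid hydrolases outside the set, 1 rose and 3 fell (3.23% and 9.68%). Among the latter, GGH, a gamma-glutamyl hydrolase of folates, fell by 1.40 ± 0.21 on the log2 scale (edgeR adjusted p = 0.00175) and CTSV, a cathepsin L relative, by 1.34 ± 0.21 (edgeR adjusted p = 0.00178). The median log2 fold change of these 31 was -0.04, beside 0.23 for the 44 members. Of 18 further proton pump subunits, 5 rose and 0 fell (27.8% and 0%). ATP6V0A4, a membrane subunit, rose from 0.133 to 0.824 CPM (2.58 ± 0.47, edgeR adjusted p = 0.00454), ATP6V1D by 0.50 ± 0.09, ATP6AP2 by 0.56 ± 0.11 and ATP6V0C by 0.71 ± 0.16 (edgeR adjusted p between 0.00516 and 0.0154). At its low levels ATP6V0A4 may have passed the count filter only through the combination libraries, so its call among the 5 carries little weight. With 13 of these 18 positive and a median of 0.28, the pump genes outside the set lay near the median of those within it.

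Of 32 further membrane proteins and transporters, 5 rose and 3 fell (15.6% and 9.38%, beside 6.24% and 6.89% of all genes). DRAM1, a lysosomal membrane protein induced by p53, rose from 26.3 ± 2.92 to 63.0 ± 1.82 CPM (1.26 ± 0.15, edgeR adjusted p = 0.000467), and SIDT2 and GLMP rose by 0.66 ± 0.13 and 0.67 ± 0.16, while LMBRD1, which takes part in cobalamin export, fell by 0.84 ± 0.16 (edgeR adjusted p between 0.00613 and 0.0163). Of 13 genes for sorting and maturation of the enzymes, 1 rose (CLN8, 0.78 ± 0.16, edgeR adjusted p = 0.00892) and 1 fell (GGA2, -0.49 ± 0.13, edgeR adjusted p = 0.0277). Each was 7.69% of the list, near the share over all genes. Of 31 genes that control TFEB and TFE3 or belong to their family, 2 rose and 1 fell (6.45% and 3.23%). SESN1, a sestrin that restrains mTORC1, rose by 1.98 ± 0.15 (edgeR adjusted p = 2.0e-05) and also with ATRi alone, by 1.29 (edgeR adjusted p = 0.00581). TFEC, a relative of TFEB, rose from 0.162 to 0.789 CPM (2.24 ± 0.45, edgeR adjusted p = 0.00746), and PPP3CA, the catalytic subunit of the phosphatase calcineurin, fell by 0.82 ± 0.13 (edgeR adjusted p = 0.00245). TFEC was also so low that it may have passed the count filter only through the combination libraries, so its call among the 2 carries little weight. Of 43 autophagy genes, 6 rose and 2 fell (14% and 4.65%). They were led by ATG4D (0.65 ± 0.10), PLEKHM1 (0.76 ± 0.16), ULK2 (-0.60 ± 0.14) and ATG10 (-0.98 ± 0.23), with edgeR adjusted p between 0.00149 and 0.0173. Leaving out 1 library lowered several of these counts, and most of the shares over all genes as well. Without DMSO replicate 1, 3.08% of all genes rose and 3.6% fell, and without DMSO replicate 3, 4.16% and 5.1%. Without DMSO replicate 2 the shares were 5.78% and 7.1%. Without any 1 combination library, 3.48% to 3.64% rose and 3.59% to 3.78% fell. The 4 calls among acid hydrolases became 2 without DMSO replicate 1 or any combination library, and the 5 among pump subunits became 3 without DMSO replicate 1 or combination replicate 1. The 8 among membrane proteins became 3 to 5 without DMSO replicate 1 or 2 or any combination library, the 2 among sorting genes became 1 without DMSO replicate 1 or any combination library, and the 8 among autophagy genes became 2 to 4 without DMSO replicate 1 or 3 or any combination library.

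**Figure D4:**
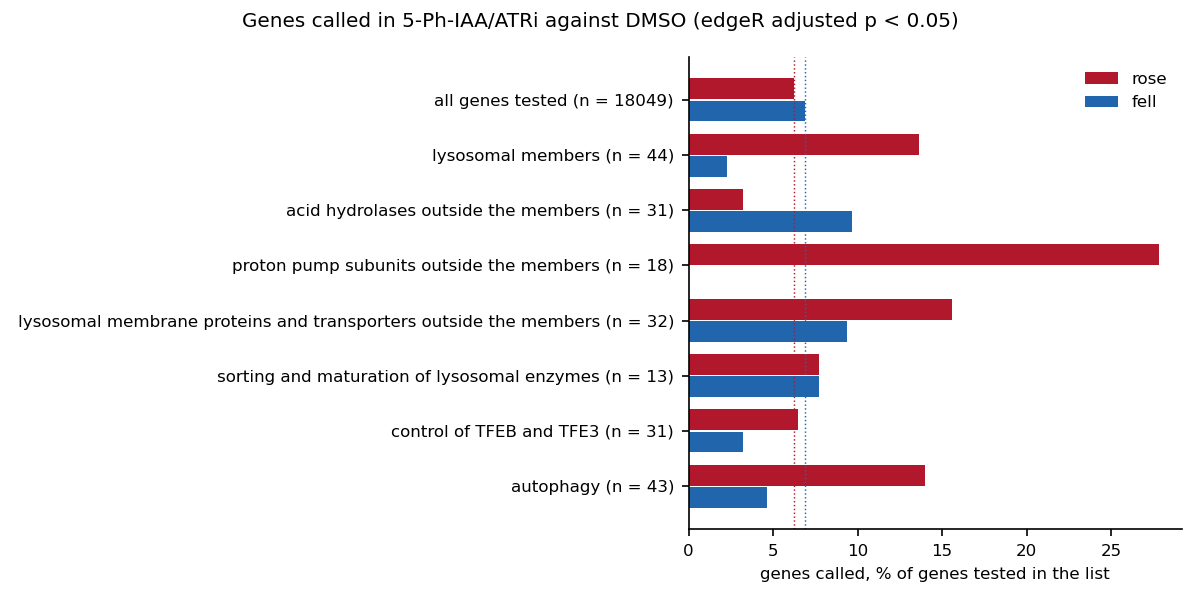
Share of tested genes that rose or fell with 5-Ph-IAA/ATRi against DMSO in the lysosomal set and in other lists of lysosomal and autophagy genes, in percent of the genes tested per list (dotted lines: 6.24% and 6.89%, the shares over all genes tested). The 44 members show 13.6% higher and 2.27% lower, and the pump subunits outside the set show 27.8% higher and 0% lower. ATP6V0A4, counted in these 27.8%, may have passed the count filter only through the combination libraries. The same holds for TFEC among the genes that control TFEB and TFE3.

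For context, the same comparison showed a rise of CDKN1A, the cell cycle inhibitor p21, from 217.6 ± 25.2 to 2062.3 ± 44.5 CPM (3.24 ± 0.19, edgeR adjusted p = 6.2e-06). LMNB1, the lamin B1 gene, fell by 2.26 ± 0.35 (edgeR adjusted p = 0.00179) and HMGB2, a chromatin protein, by 2.43 ± 0.23 (edgeR adjusted p = 9.4e-05). Of the 7 senescence markers listed, 1 rose and 5 fell, where 6.24% of all genes rose and 6.89% fell. The rise of CDKN1A was not particular to the combination. With ATRi alone it was also called higher (log2 fold change 1.80), where 0.0665% of all genes were called higher. The rest of the 7 markers are not reported here by name.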

How the data were processed

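Poly(A) RNA from 12 cultures was sequenced, 3 per group, with groups and set numbers taken from the sample titles. The deposited values are estimated counts per gene, which the authors obtained with Salmon 1.10.1 per the submitters' processing notes. The same notes name STAR 2.7.9a, SAMtools 1.17, cutadapt 3.4, Trim Galore 0.6.7, FastQC 0.12.1 and the build GRCh38.p14. Which annotation release and strand setting the counting used is not given in the sources used here, so genes with shared exons are uncertain. Of the values, 13.6% were not whole, and they were rounded.

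After edgeR's filterByExpr, run with a minimum count of 10 and a minimum total of 15, 18049 genes were left. They were scaled by TMM and tested in R 4.3.3 with limma 3.58.1 and the quasi-likelihood F test of edgeR 4.0.16, in a joint model of the 12 libraries that had a mean for each group. There were 6 contrasts, the interaction among them. P values were adjusted by Benjamini-Hochberg across the 18049 genes, and calls were made under 0.05. A standard error is the log2 fold change divided by the root of F. Levels are CPM on TMM-scaled library sizes. The median biological coefficient of variation was 0.214, and replicates differed by far more than counting noise (chi-square of 17.2 to 254.7 per gene), so none was counted as a copy of another. The script was tested on simulated counts.

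Members and lists were chosen with earlier results of these data known. Named genes are the called members, GLB1, LAMP1, TFEB, TFE3 and MCOLN1, the other members by role, and up to 4 called genes of each other list with the smallest adjusted p. Some genes of these lists are not reported here by name. Positions and promoters come from RefSeq (GRCh38.p14), matched by symbol for 45 and 31 of 45 members, and transcript lengths and exon overlaps from GENCODE release 29. Alternatives were other scaling factors, filters and tests (DESeq2 1.42.0, limma-voom), a replicate block, the mitochondrial share as a covariate, the compared groups alone, and leaving out libraries.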

Additional observations from a re-analysis of the deposited data

How the results depend on the processing

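The calls of CD68, FUCA1, SMPD1 and MAN2B1 against DMSO held in all 17 alternatives, that of NEU1 in 16, CTSC in 14 and SGSH in 8. Other scaling factors, filters, limma-voom and the compared groups alone gave 5 to 9 called members in the combination against DMSO, beside 7. In these settings 2.03% to 7.23% of all genes rose and 2.7% to 8.25% fell. DESeq2's own test gave 11 (8 higher, 3 lower), where 8.5% of all genes rose and 9.63% fell, and 9 against 5-Ph-IAA, beside 4. The mitochondrial covariate gave 23 against DMSO, 20 against 5-Ph-IAA, 12 against ATRi, beside 3, and 1 for the interaction, beside 0. With it the shares of all genes that rose and fell were 17.6% and 18.1% against DMSO and 15.1% and 15.4% against 5-Ph-IAA. They were 8.58% and 9.09% against ATRi, and 0.51% and 1.03% for the interaction. The 8 libraries without the highest mitochondrial share per group gave 2 against 5-Ph-IAA and 1 against ATRi. Leaving out 1 library gave 5 to 7 calls against DMSO, 2 to 3 against 5-Ph-IAA and 0 to 1 against ATRi. Against DMSO, 3.08% to 5.78% of all genes then rose and 3.59% to 7.1% fell. Outside the combination against DMSO, shares over all genes were counted for the main model and the covariate only.

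Set numbers matched a pairing of the samples only in part. Of 18 same-set pairs of libraries, 13 had deviations correlated above 0.1 (range -0.0936 to 0.756). Other pairs ranged from -0.738 to 0.591, and 10 of 12 libraries correlated best with their own set. The same-set pairs of DMSO replicate 1 lay between -0.0936 and -0.0686, and the pairs within set 3 between 0.499 and 0.756. The main model left out the set number, and the number of calls depended on that choice. With the set number as a replicate block, 16 members were called against DMSO (12 higher, 4 lower), 13 against 5-Ph-IAA, 6 against ATRi and 1 for the interaction (CTSH, lower). The block added CTSD, IDS, MCOLN1, ATP6AP1, ATP6V0D1 and ATP6V1A to the rises against DMSO and CTSH, CTSZ and GUSB to the falls, where 11.7% of all genes rose and 13.6% fell.

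The log2 fold change of GLB1 reversed to 0.12 with the mitochondrial covariate. That of TFE3 reversed to 0.0016 with limma-voom, 0.30 in the 8 libraries and 0.37 without DMSO replicate 2, and leaving out 1 library gave -0.38 to 0.37. The cause of these shifts was not tested. CTSF, with 0 or 1 count in each library, was too low to test.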
